A study of Mus musculus with 6 samples.

Results

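The Schlafen genes of the mouse form a cluster on chromosome 11, and 7 of them, Slfn1, Slfn2, Slfn3, Slfn4, Slfn5, Slfn8 and Slfn9, were followed here in the cornea of Muc13 knockout mice. Muc13 is a mucin that spans the membrane of epithelial cells. The 7 members were taken by gene symbol from a table of 18227 genes. RNA came from corneas of male Muc13-/- mice on the C57BL/6 background (3 libraries, KO 1 to 3) and of male wild-type C57BL/6 mice (3 libraries, WT 1 to 3), all 6 weeks old, kept specific-pathogen-free, with no other treatment given in the labels. The labels do not say which part of Muc13 was deleted, or whether a library came from 1 mouse or from several, so the spread between libraries may be partly technical. The family was chosen by its read counts in these same libraries, compared between the genotypes. The genotype values of the 7 genes are therefore given as a description, with no test.

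Schlafen proteins take their name from the German word for sleeping, because the first members were found as genes that hold developing T cells out of the cell cycle. All share an N-terminal Schlafen core that binds and, in several members, cleaves RNA, transfer RNA among it, and the long members add a helicase-like C-terminal part. Interferon induces most of the mouse family in macrophages and fibroblasts, and human SLFN11, a relative of the long mouse members, restricts virus protein synthesis and sensitises cells to DNA damage.

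The cluster lies on chromosome 11 of GRCm38, and its measured members run from 82951349 to 83215154, a span of 263.8 kb. Slfn5 comes first (82951349 to 82964840, plus strand). Slfn9 (82978390 to 82991830) and Slfn8 (83002158 to 83020810) follow on the minus strand. The remaining 4 are on the plus strand, with Slfn2 at 83065112 to 83070678, Slfn1 at 83116849 to 83122670, Slfn4 at 83175186 to 83190216 and Slfn3 at 83191330 to 83215154. By the length of the longest annotated coding sequence the 7 genes fall into short members (Slfn1, 1011 bases, and Slfn2, 1134 bases), intermediate members (Slfn4, 1806 bases, and Slfn3, 1920 bases) and long members (Slfn5, 2652 bases, with Slfn8 and Slfn9 at 2730 bases each). The coding sequences of 2 pairs are close copies. Slfn8 and Slfn9 were identical at 92.7% of 2730 aligned bases and Slfn3 and Slfn4 at 92.7% of 1785 aligned bases. Slfn1 and Slfn2 were less alike, at 72.3% of 1000 aligned bases, and Slfn5 matched Slfn8 and Slfn9 at 64.4% of 2568 aligned bases each.

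The windows around the transcription starts, from 250 bases before to 50 after and taken from RefSeq on GRCm38.p6, also split the family, so the stretches that carry this split are shown. All 7 members matched a window. The first motif searched, on both strands, was the core of the interferon-stimulated response element, which is GAAA, any 2 bases and GAAA again, and the windows of Slfn9, Slfn8 and Slfn5 hold it. Of all 27025 genes with a window, 3.99% hold this core, against 22 of the 42 interferon-response genes (defined below) that have a window. Capitals mark the core, which in Slfn9 and Slfn8 lies on the strand opposite to the printed one. The Slfn9 window is chr11:82991781-82992080, minus strand, and the Slfn8 window is chr11:83020761-83021060, minus strand. The Slfn5 stretch is chr11:82951922-82951981, plus strand.
Slfn9: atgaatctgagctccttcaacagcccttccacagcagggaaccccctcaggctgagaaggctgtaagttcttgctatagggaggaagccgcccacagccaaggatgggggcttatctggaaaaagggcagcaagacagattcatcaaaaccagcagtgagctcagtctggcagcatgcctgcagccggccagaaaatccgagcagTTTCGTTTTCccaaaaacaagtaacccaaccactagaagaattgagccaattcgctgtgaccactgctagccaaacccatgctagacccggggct
Slfn8: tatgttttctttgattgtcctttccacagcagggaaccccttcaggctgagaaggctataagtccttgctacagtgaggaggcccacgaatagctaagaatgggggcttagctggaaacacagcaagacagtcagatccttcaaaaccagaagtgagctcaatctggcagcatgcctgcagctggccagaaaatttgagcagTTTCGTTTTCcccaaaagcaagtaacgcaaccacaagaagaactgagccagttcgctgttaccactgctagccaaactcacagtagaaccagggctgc
Slfn5: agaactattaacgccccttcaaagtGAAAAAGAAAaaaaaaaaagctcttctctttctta

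The Slfn8 and Slfn9 windows were identical at 248 of 292 aligned bases, with the same 10 letters of the core at nearly the same place, starting 48 bases before the start of Slfn8 and 45 before that of Slfn9. A window of Slfn8 at another annotated start holds the same match. In the other 4 members the core was not found, and a different run, ACTTCCTGG, was noticed on reading the sequences and then counted on both strands. It starts 74, 55, 42 and 73 bases before the starts of Slfn1, Slfn2, Slfn3 and Slfn4, and 0.999% of the 27025 genes hold it. The TTCNNNGAA core of the gamma-activated sequence was found in none of the 7 windows and in 9.55% of those genes. Capitals mark ACTTCCTGG in the plus-strand stretches chr11:83065032-83065091 (Slfn2), chr11:83116721-83116780 (Slfn1), chr11:83175088-83175147 (Slfn4) and chr11:83191263-83191322 (Slfn3). These matches describe letters, and binding was not measured.
Slfn2: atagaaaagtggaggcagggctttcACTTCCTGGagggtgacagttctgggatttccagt
Slfn1: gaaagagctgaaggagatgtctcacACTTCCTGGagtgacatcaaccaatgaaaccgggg
Slfn4: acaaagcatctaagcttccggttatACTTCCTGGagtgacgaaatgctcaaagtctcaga
Slfn3: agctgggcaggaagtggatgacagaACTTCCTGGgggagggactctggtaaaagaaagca

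The libraries held 14068882 to 15480348 expected counts (estimated reads per gene), with 15823 to 17105 genes above 0. Values of a group are listed below in the order of its replicates. Muc13 itself was close to the detection limit, with 9, 4 and 2 counts in the knockout against 18, 21 and 9 in the wild type. KO 1 and WT 3 had 9 counts each, so Muc13 did not separate these libraries, and the genotypes are used as labelled. Krt12, the keratin of the corneal epithelium, was found in all 6 libraries, at 1346 to 42075 CPM (counts scaled to a common library total). WT 1 and WT 2 stood apart from the rest. The summed level of 10 retina markers reached only 70.2 and 241 CPM in these 2 libraries but 20473 to 35717 CPM in the other 4, and that of 8 corneal epithelium markers was 101877 and 79217 CPM against 24036 CPM in WT 3. In KO 1 to 3 the epithelial sum was 30854, 30146 and 4897 CPM. In whole tissue, fewer cells of a type and less RNA per cell cannot be told apart. The genotype value of each member is therefore also given against WT 3 alone, the wild-type library whose retina and epithelium sums are nearest to those of the knockout libraries.

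In the wild-type cornea the family was led by Slfn2 and Slfn4, and in the knockout the levels of both were far lower. The summed level of the 7 genes in TPM (a relative level that corrects for gene length) was 14.7, 14.28 and 19.35 (KO 1 to 3) against 35.97, 64.03 and 42.65 (WT 1 to 3), so the groups did not overlap. Of the 7 members, 4 (Slfn1, Slfn2, Slfn4 and Slfn9) lay in every knockout library below every wild-type library in CPM, and 0 lay above. Over the 14983 genes tested, among which are 6 members and 3 of these 4, 5.51% lay below in this way and 4.71% above. Leaving a library out cannot make separate groups overlap, apart from small changes in scaling. That Slfn2, Slfn4 and Slfn9 lay below whichever single library was left out is therefore no check of their separation. The count was 5 without KO 2, where Slfn3 joined, and 6 without KO 3, where Slfn5 and Slfn8 joined. Slfn3 also joined without WT 3. Slfn1 did not pass the filter on low counts and is described from counts alone, beside a fit with no filter.

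**Figure D1:**
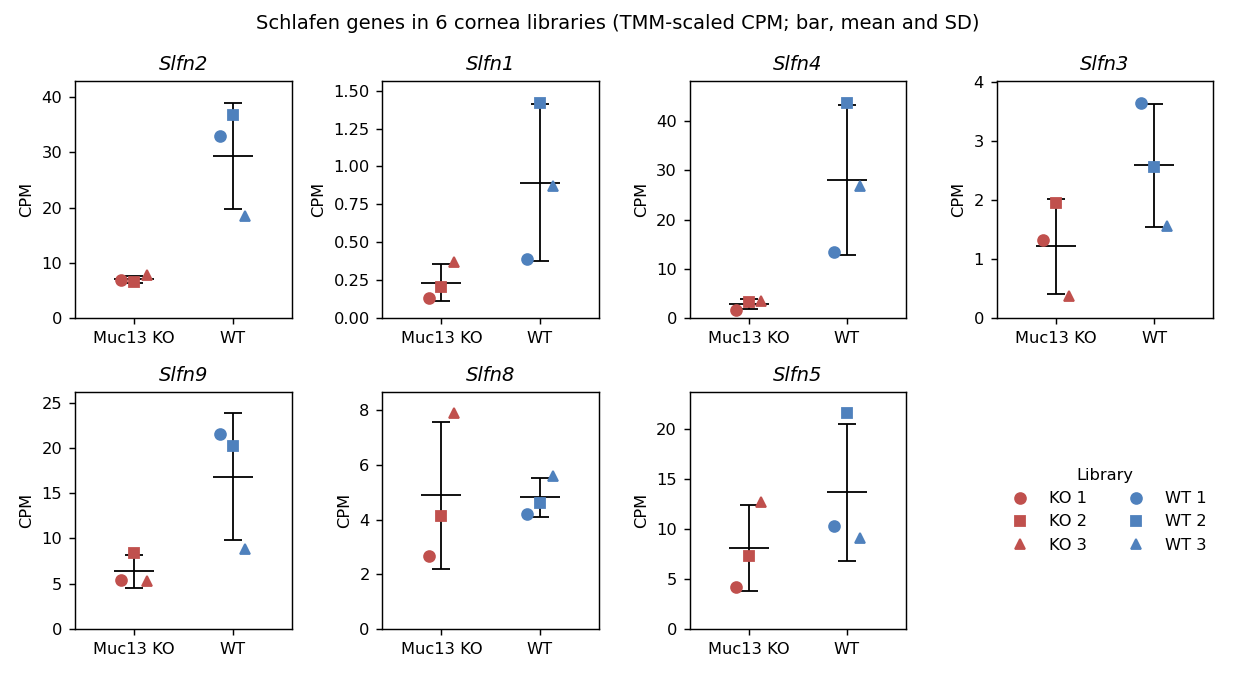
Level of each Schlafen gene in TMM-scaled CPM (vertical axes, from 0) in the 3 Muc13 knockout and 3 wild-type cornea libraries, with 1 symbol per library and bars for the mean and SD. Slfn2 and Slfn4 leave a clear gap between the groups, Slfn1 and Slfn9 a narrow one, and Slfn3, Slfn5 and Slfn8 overlap.

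Among the short members, Slfn2 keeps T cells and monocytes quiescent in mice and is needed for their survival. It was at 6.90, 6.55 and 7.77 CPM (KO 1 to 3) against 32.9, 36.7 and 18.5 CPM (WT 1 to 3). The knockout libraries were close together, and the lowest wild-type library was 2.38 times the highest of them. The means were 7.07 ± 0.626 and 29.4 ± 9.61 CPM (SD, n = 3 each), 4.16-fold lower in the knockout, with a log2 fold change of −2.05 (SE 0.312). This value ran from −2.30 without WT 3 to −1.87 without WT 2, and against WT 3 alone it was −1.38. The highest levels were in WT 1 and WT 2, the libraries richest in epithelial RNA. Within the knockout, however, KO 3 had the highest Slfn2 level and the lowest epithelial sum. The part of tissue content in the difference was not tested. Only 0.821% of the genes tested had a lower log2 fold change.

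Slfn1, which arrests T-cell growth when overexpressed, was at the edge of detection, with 2, 3 and 6 counts (KO 1 to 3) against 5, 20 and 14 (WT 1 to 3). In CPM these were 0.133, 0.203 and 0.370 against 0.389, 1.42 and 0.873, where 3 counts correspond to 0.185 to 0.233 CPM. KO 3 and WT 1 almost touched, so the separation of the groups rests on a difference of about the counting error. The log2 fold change from the fit with no filter was −1.89 (SE 0.710), and it was −1.84 against WT 3 alone.

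Among the intermediate members, Slfn4 is a gene of myeloid cells, induced in mouse macrophages by interferon and bacterial products. It had the lowest log2 fold change of the family, with 26, 49 and 58 counts (KO 1 to 3) against 174, 616 and 430 (WT 1 to 3). In CPM it was at 1.72, 3.31 and 3.58 in the knockout and 13.5, 43.8 and 26.8 in the wild type. All wild-type libraries lay above all knockout libraries, by at least 3.79 times, although WT 1 was well below WT 2. The means were 2.87 ± 1.00 and 28.0 ± 15.2 CPM (SD, n = 3 each), 9.77-fold lower in the knockout. The log2 fold change was −3.28 (SE 0.557), lower than in all but 7 of the 14983 genes tested. It was −3.21 against WT 3 alone and ran from −3.62 without WT 1 to −2.81 without WT 2.

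Slfn3, studied in rats and mice as a promoter of intestinal epithelial differentiation, was low throughout. It had 20, 29 and 6 counts (KO 1 to 3) against 47, 36 and 25 (WT 1 to 3), which gave 1.33, 1.96 and 0.370 CPM against 3.66, 2.56 and 1.56 CPM. KO 2 lay above WT 3, so the groups overlapped. The log2 fold change of −1.08 (SE 0.706) became −0.65 without KO 3, −1.58 without KO 2 and −0.36 against WT 3 alone. The library with the least Slfn3, KO 3, was also the one with the lowest epithelial sum, and WT 1 and WT 2, the ones with the most, had the highest. The part of tissue content in this difference was not tested.

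Although Slfn3 and Slfn4 are neighbours and close copies, they did not keep the same proportion. The TPM of Slfn4 divided by that of Slfn3 was 0.579, 0.777 and 5.44 (KO 1 to 3) against 2.14, 8.43 and 8.54 (WT 1 to 3). WT 1 lay below KO 3 in this ratio, so the groups overlapped. Of all 50-base windows in the transcript with the longest coding sequence, 13.1% of those of Slfn3 occur in Slfn4 and 6.45% of those of Slfn4 occur in Slfn3. The counts of both genes were whole numbers in every library.

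Among the long members, Slfn9 was at 5.37, 8.44 and 5.30 CPM (KO 1 to 3) against 21.5, 20.2 and 8.79 CPM (WT 1 to 3). The groups did not overlap, but WT 3 exceeded KO 2 by only 1.04 times. The means were 6.37 ± 1.79 and 16.8 ± 7.0 CPM (SD, n = 3 each) and the log2 fold change was −1.40 (SE 0.436). Against WT 3 alone it was −0.46. As with Slfn2 and Slfn3, the highest values were in WT 1 and WT 2, the libraries richest in epithelial RNA, and their part in the difference was not tested.

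Slfn8, whose forced expression in mice disturbs T-cell development, showed no lower mean in the knockout. It was at 2.65, 4.12 and 7.89 CPM (KO 1 to 3) against 4.20, 4.62 and 5.61 CPM (WT 1 to 3). The wild-type libraries lay close together inside the range of the knockout ones. The means were 4.89 ± 2.70 and 4.81 ± 0.724 CPM (SD, n = 3 each), with a log2 fold change of 0.02 (SE 0.492). This value was −0.50 without KO 3 and 0.32 without KO 1, so its sign depended on single libraries, and against WT 3 alone it was −0.19.

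Slfn5, a nuclear member that acts in interferon signalling in human cells, was at 4.24, 7.30 and 12.8 CPM (KO 1 to 3) against 10.3, 21.6 and 9.10 CPM (WT 1 to 3). KO 3 lay above both WT 1 and WT 3. The log2 fold change of −0.76 (SE 0.550) became −1.24 without KO 3, −0.27 without WT 2 and −0.16 against WT 3 alone. KO 3 thus held the highest knockout level of both Slfn5 and Slfn8, while it was not the highest knockout library for Slfn9.

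Slfn8 and Slfn9 share reads, so their separation was checked. Their counts were not whole in 4 of 6 libraries, as were those of Slfn5, whereas their sum was whole in all 6 within 0.005 counts, at 121, 186 and 214 (KO 1 to 3) against 331, 349 and 231 (WT 1 to 3). The fractions of the pair thus made up whole reads together. Of all 50-base windows, 15.4% of those of Slfn8 and 11.4% of those of Slfn9 occur in another gene, mostly Slfn10-ps (10.7% and 8.44%), whose reads were not analysed here. In CPM the sum, which does not depend on how reads were divided within the pair, was 8.02 to 13.2 in the knockout and 14.4 to 25.7 in the wild type. The TPM of Slfn9 divided by that of Slfn8 was 1.21, 1.23 and 0.364 (KO 1 to 3) against 3.27, 2.78 and 1.04 (WT 1 to 3). WT 3 lay below KO 1 and KO 2, so this ratio overlapped between the groups and was highest in WT 1 and WT 2.

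**Figure D2:**
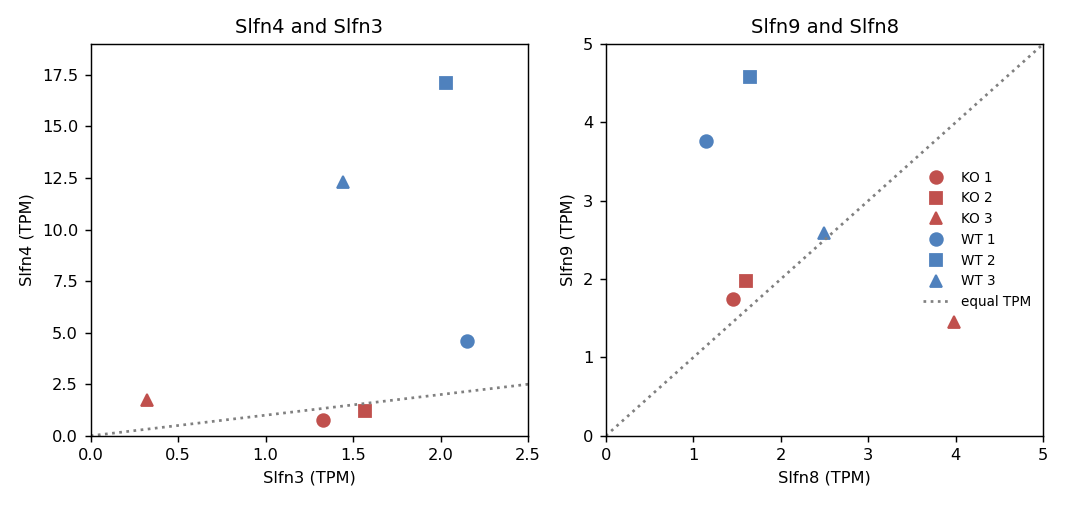
TPM of Slfn4 against Slfn3 (left, with different axis ranges) and of Slfn9 against Slfn8 (right) in each library, with a dotted line where both are equal. Slfn4 is above Slfn3 in every wild-type library, reaching 17.1 TPM in WT 2, and Slfn9 is above Slfn8 by the widest margin in WT 1 and WT 2.

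Annotated overlaps limit 2 further members. Slfn5 overlaps Slfn5os and Slfn2 overlaps Gm20234, each on the opposite strand. The sources used here do not say whether counting used strand, so reads of these genes and of their antisense partners cannot be told apart. Slfnl1, a Schlafen-like gene outside the cluster, had 4, 0 and 3 counts (KO 1 to 3) against 1, 0 and 0 (WT 1 to 3). Slfn14 was not analysed here.

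The members did not stand equally far from one another in level. In TPM averaged on the log2 scale over all 6 libraries, with a pseudocount of 0.1, the order was Slfn2, Slfn4, Slfn9, Slfn5, Slfn8, Slfn3 and Slfn1. Slfn2 exceeded Slfn4 in 6 of 6 libraries, by 1.92 ± 0.934 on the log2 scale (SD, n = 6). The exact two-sided sign-flip permutation p was 0.0312, the smallest that 6 libraries allow, and 0.188 after Benjamini-Hochberg adjustment over the 6 neighbouring pairs. Slfn3 exceeded Slfn1 in 5 of 6 libraries, by 1.58 ± 1.24 (SD, n = 6; exact permutation p = 0.0625, adjusted 0.188). For the other 4 pairs the mean difference was 0.09 to 0.51 and smaller than its SD, so the order of Slfn4, Slfn9, Slfn5, Slfn8 and Slfn3 was not resolved. No pair passed after adjustment, and a single pair at the smallest p could not have passed. This order pools the genotypes, which differed in it. By mean TPM the knockout order was Slfn2 (7.44), Slfn8 (2.34), Slfn5 (2.08), Slfn9 (1.72), Slfn4 (1.24), Slfn3 (1.07) and Slfn1 (0.213). The wild-type order was Slfn2 (25.2), Slfn4 (11.3), Slfn9 (3.64), Slfn5 (3.04), Slfn3 (1.87), Slfn8 (1.76) and Slfn1 (0.727).

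The make-up of the family differed between the groups in Slfn4, Slfn8 and Slfn5, whose shares did not overlap. Slfn4 made up 5.24% to 8.99% of the summed TPM in the knockout and 12.8% to 28.8% in the wild type. Slfn2 stayed the leading member everywhere, at 41.9% to 54.9% and 48.1% to 61.8%. Slfn8 took 9.86% to 20.6% of the sum in the knockout and 2.58% to 5.84% in the wild type, and Slfn5 took 8.10% to 16.9% and 5.17% to 7.45%. Because these shares add up to the whole, a lower Slfn2 and Slfn4 raises the shares of the others by itself.

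Over the family as a whole, 5 of the 6 tested members had a log2 fold change below 0, against 48.5% of all genes tested, and 4 were at −1 or lower, against 8.88%. The median was −1.24 for the 6 members and 0.02 for all genes tested. Scaling by library size alone moved the median of all genes to 0.19 and left the directions of all 6 as they were. Against WT 3 alone, with Slfn1 included, the median of the 7 was −0.46.

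**Figure D3:**
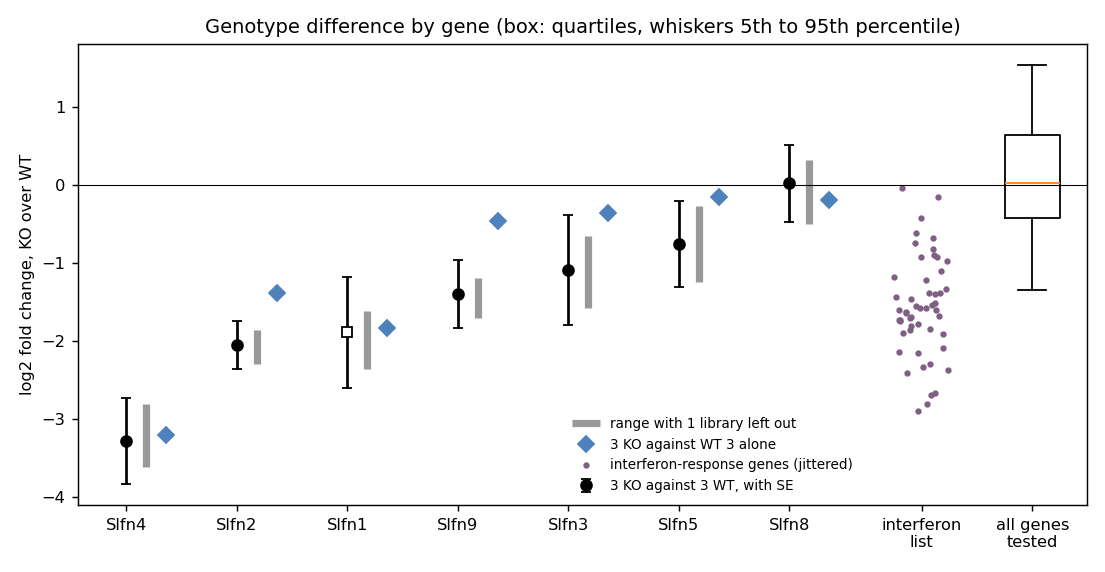
Log2 fold change of knockout over wild type (vertical axis) for each Schlafen gene with its SE (black; Slfn1, open square, from the fit with no filter), the range when 1 library is left out (grey bars; for Slfn1 the 4 such fits in which it passed the filter) and the value against WT 3 alone (blue diamonds), beside the interferon-response genes and all genes tested. Slfn4 stays near −3.2 and Slfn1 near −1.8 against WT 3, Slfn2 is at −1.38, and Slfn9, Slfn3 and Slfn5 move to −0.46, −0.36 and −0.16, while Slfn8 moves to −0.19.

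Of the knockout libraries, KO 1 and KO 2 had the epithelial sums closest to WT 3 (30854 and 30146 against 24036 CPM). In this narrower set Slfn2 was at 6.90 and 6.55 CPM against 18.5 in WT 3, which was 2.69 and 2.83 times higher. Slfn4 was at 1.72 and 3.31 against 26.8 CPM, 15.6 and 8.10 times higher in WT 3. Slfn9, at 5.37 and 8.44 against 8.79 CPM, differed by 1.64 and 1.04 times, and for Slfn3 the single wild-type value lay between those of KO 1 and KO 2. WT 3 was also above KO 1 and KO 2 for Slfn5 (2.14 and 1.25 times) and Slfn8 (2.12 and 1.36 times). For Slfn1, at the edge of detection, it was 6.58 and 4.31 times higher. With 1 wild-type library these ratios have no replicate check, and the part of tissue content in them was not tested. The retina sum was 35717 CPM in KO 1, 20473 in KO 2 and 23028 in WT 3, and 7 lens markers summed to 2813 CPM in KO 1, 59450 in KO 2 and 29737 in WT 3.

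**Figure D4:**
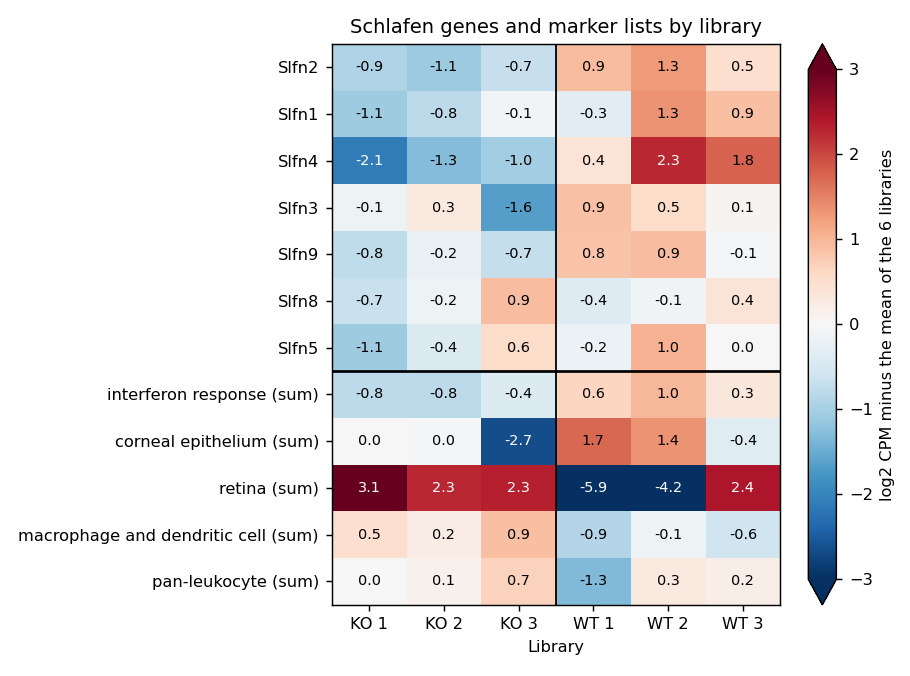
Log2 CPM of each Schlafen gene and of summed marker lists, minus the mean of the 6 libraries (colour, limited to −3 to 3, with the value written in each cell). Slfn2, Slfn4 and the interferon-response sum are below their means in every knockout library and above them in every wild-type library. This agreement in sign is the difference between the groups and not a separate result per library. Within the wild type, the interferon-response sum and Slfn2 are lowest in WT 3, but Slfn4 is not. Slfn3 is lowest in KO 3, as is the corneal epithelium sum.

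Leukocytes are the best known source of Schlafen transcripts, so their markers were set beside the family. None of the leukocyte lists had a lower sum in all knockout libraries, but several of these sums were only a few CPM. The 5 pan-leukocyte markers summed to 18.4 to 29.3 CPM in the knockout and 7.31 to 22.2 CPM in the wild type. The 8 macrophage and dendritic cell markers summed to 142 to 226 CPM against 66.7 to 110 CPM, and Lyz2, a lysozyme, carried this gap. Without it the other 7 summed to 60.6 to 105 CPM against 36.1 to 68.0 CPM and overlapped. Of the 8 markers, 7 had a log2 fold change above 0, and only Cd68 lay below, at −0.09 (SE 0.293). The median of the 8 was 0.56. T-cell markers (7 in the table) were at 1.82 to 4.07 against 0.933 to 1.68 CPM in sum, and the 7 neutrophil markers were at 2.85 to 4.13 against 1.40 to 2.91 CPM. The 5 NK-cell markers were at 2.84 to 4.13 against 0.233 to 4.49 CPM, and the 4 B-cell markers at 1.22 to 1.39 against 0.997 to 1.49 CPM. Of 8 T-cell and 5 B-cell markers listed, 7 and 4 were in the table. No marker in the table was at 0 in every library. However, only 2 T-cell, 1 NK-cell, 1 B-cell and 2 neutrophil markers passed the filter on low counts. The mast cell list, at 27.4 to 98.6 against 83.9 to 271 CPM, was almost all Kit, a receptor that other cells carry too. Red cell genes summed to 182 to 419 against 34.6 to 124 CPM. The 6 skeletal muscle markers summed to 56.5 to 665 CPM in the knockout and to 2908, 2128 and 203 CPM in WT 1 to 3. The 6 stroma markers, at 873 to 2059 against 811 to 2026 CPM, and the 3 endothelium markers, at 271 to 395 against 23.6 to 440 CPM, overlapped between the groups. Lyz2 and the T-cell and red cell sums were higher in all knockout libraries. The part of leukocyte content, of Lyz2 and of the red cell genes in the Schlafen differences was not tested.

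The interferon-response genes lay on the same side as Slfn2 and Slfn4. Their list was chosen with earlier results of these data known, so its counts are a description and not independent support. Of 53 interferon-response genes in the table, Schlafen genes left out, 52 were tested and all 52 had a log2 fold change below 0, with a median of −1.61. In 43 of the 52, or 82.7%, every knockout library lay below every wild-type library. Adjusted over all genes, edgeR's quasi-likelihood test called 0 of the 52 (0.0% of all genes passed), and at an unadjusted p under 0.05 it called 41 lower and 0 higher, where all genes gave 3.66% lower and 0.721% higher. DESeq2 called 31 of them lower and 0 higher, against 0.417% and 0.0626% of all genes, and limma-voom called 0. Counts of 0 do not show that genes did not differ. Without WT 3, edgeR called 37 of them and 5166 of all genes, so those calls hang on that library. The median of the list against WT 3 alone was −1.14.

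Among the interferon-response genes with the smallest p were Oas3, Isg15, Dhx58, Iigp1 and Irf7, each with an edgeR adjusted p of 0.501. Irf7, the factor that amplifies interferon production, was at 39.9, 38.5 and 42.1 CPM (KO 1 to 3) against 90.2, 154 and 115 CPM (WT 1 to 3), with a log2 fold change of −1.58 (SE 0.233). Its groups were well apart, and WT 3 lay between WT 1 and WT 2. The RNA sensor Dhx58 was at −1.81 (SE 0.250).

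Receptors and kinases of the interferon system, 9 genes from Ifnar1 to Tyk2, did not pass either. Their median log2 fold change was −0.51, with 7 below 0 and 2 above, and it was 0.02 against WT 3 alone. None passed with edgeR, adjusted or at an unadjusted p under 0.05, and neither DESeq2 nor limma-voom called any. The kinase Jak1 was at −0.57 (SE 0.331) and the interferon gamma receptor Ifngr1 at −0.82 (SE 0.340). A list of 7 other RNA-cleaving enzymes and their regulators gave a median of −0.22 and likewise 0 calls by each of these tests. Its most abundant members were the ribonuclease inhibitor Rnh1, at −1.06 (SE 0.472), and the ribonuclease N4bp1, at −0.17 (SE 0.179).

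Genes whose pattern over the 6 libraries was most like that of each member also differed within the family. Likeness was the root mean square difference of centred log2 CPM over the 6 libraries, among 14230 other genes, and each member is also part of the contrast that chose it, so these names are a description. For Slfn2 the nearest were Dhx58, an RNA sensor (0.14 on the log2 scale), Apol9a (0.14) and the peptide transporter Tap1 (0.23). Slfn4 had no neighbour as near, and its closest were Gbp10 (0.40), the nucleic acid sensor Zbp1 (0.46) and the GTPase Tgtp2 (0.47). The measure was not scaled for how much a gene varied. The SD of the centred log2 CPM was 1.77 for Slfn4 and 1.03 for Slfn2, so larger distances for Slfn4 partly reflect its spread.

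The remaining members were nearest to other genes. Slfn9 was nearest to Cavin1, a caveola coat protein (0.13), Ska1, a kinetochore protein (0.15), and Trim12c (0.16). Slfn3 was nearest to the guidance factor Sema3d (0.13), Aqp2 (0.14) and Mesp2 (0.14). Slfn8 was nearest to the heparanase Hpse (0.080), the class II loading factor H2-DMb1 (0.12) and the sialyltransferase St3gal5 (0.14). For Slfn5 the closest were Carns1 (0.15), Rcsd1 (0.16) and H2-Q7 (0.21). Hpse had its lowest level in KO 1 and its highest in KO 3, as Slfn8 did, and was at 19.3, 31.3 and 56.0 CPM (KO 1 to 3) against 26.8, 31.7 and 39.3 CPM (WT 1 to 3). Between members, the closest pair was Slfn2 and Slfn9 (0.45), while the near copies Slfn8 and Slfn9 (0.95) and Slfn3 and Slfn4 (1.46) were farther apart. These distances mix the shape of a profile with its spread. The SD was 0.883 for Slfn3 against 1.77 for Slfn4, and 0.570 for Slfn8 against 0.738 for Slfn9.

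The lower levels were not shared evenly along the chromosome. Going from Slfn5 to Slfn3 the log2 fold changes were −0.76, −1.40, 0.02, −2.05, −1.89, −3.28 and −1.08, so Slfn8, with no difference of means, lies between Slfn9 and Slfn2. Of the 4 tested genes before the cluster, Rffl, a ubiquitin ligase, was at −0.62 (SE 0.222), with groups that did not overlap. The myosin chaperone Unc45b was at −1.46 (SE 0.913), and its levels overlapped between the groups. The DNA repair gene Rad51d (−0.17) and the ribosome assembly gene Nle1 (0.0030) were near 0. After the cluster, the clathrin adaptor subunit Ap2b1 was at −0.63 (SE 0.281). The metalloproteinase Mmp28 was at −1.54 (SE 0.656) and Rasl10b at 1.30 (SE 1.47). Each of these 7 neighbours had an edgeR adjusted p of 0.501 or more.

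**Figure D5:**
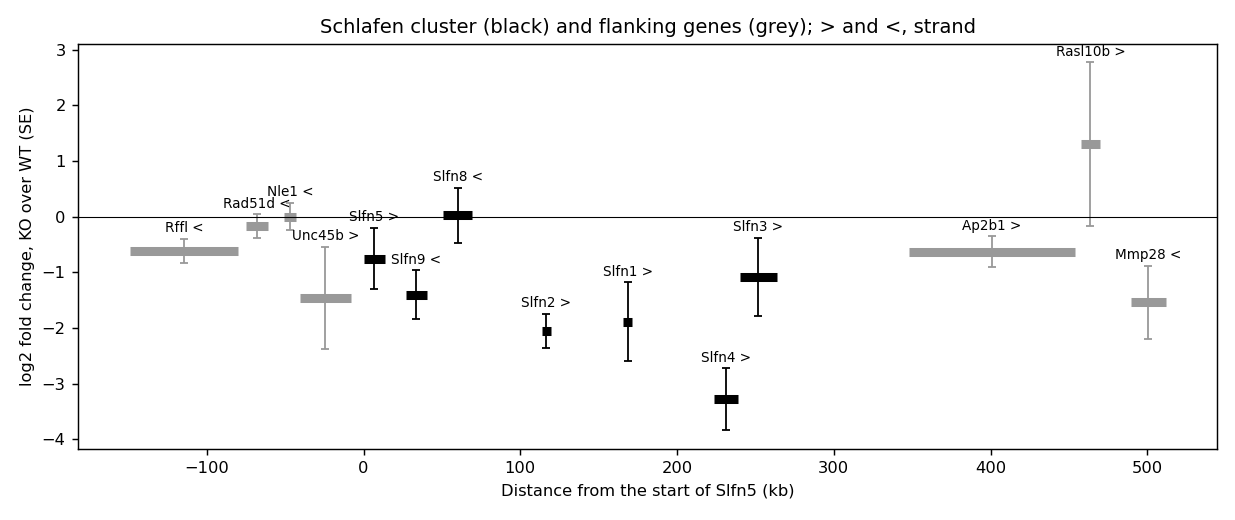
Log2 fold change of knockout over wild type with its SE (vertical axis) for the Schlafen members (black) and 7 tested genes beside the cluster (grey), placed by distance in kb from the start of Slfn5, with bars as long as each gene. Slfn4 is lowest at −3.28, and the directly neighbouring Slfn3 is at −1.08.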

How the data were processed

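RNA-seq of 6 mouse cornea libraries was used, grouped by the genotype in the labels. The authors deposited expected counts (estimated reads per gene, not normalized), TPM and FPKM, per the file headers. Genome build GRCm38 (mm10) is named in the submitters' processing notes (aligner, counter, annotation and strand setting: not given in the sources used here). Their 6 scaled-count and 8 average columns were not used. Of 18227 gene identifiers, 18181 matched GENCODE M21.

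Counts were rounded to whole numbers and tested over the whole table in R 4.3.3 with edgeR 4.0.16 (quasi-likelihood, TMM scaling, filterByExpr, robust, genotype as the only term), with calls at a Benjamini-Hochberg adjusted p under 0.05. Low counts removed 3244 genes and left 14983. DESeq2 1.42.0 and limma 3.58.1 were alternatives. Each SE was taken as the absolute log2 fold change over the root of its F statistic. CPM use the TMM-scaled library sizes, and centred log2 CPM a prior count of 2. The upper limit for a gene at 0, which is 3 counts, corresponds to 0.185 to 0.233 CPM (counting error only). Pairs of libraries differed by a mean chi-square of 41.8 to 528 per gene, beyond sampling noise, so none was merged.

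The members, the 17 marker and pathway lists and the rules for named genes were chosen with earlier results of these data known. Named genes are the 7 members, Muc13, the 6 interferon-response genes with the smallest p, up to 2 abundant genes of each other list, the nearest 4 tested genes on each side and 3 like genes per member. Not all are printed, and some items are not reported here. Coding sequences came from GENCODE M21 and promoter windows from RefSeq. Global alignments used biopython 1.88.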

Additional observations from a re-analysis of the deposited data

How the results depend on the processing

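The count of all genes called by edgeR was 0 in the analysis reported, 69 with the DESeq2 Wald test, and 0 to 5166 when 1 library was left out. For the interferon-response genes these counts were 0, 31 and 0 to 37. With edgeR, every call in these sets came without WT 3. The members' median of −1.24, over 6 members, ran from −1.66 without KO 2 to −1.18 without WT 2. It was −0.46 without WT 1 and WT 2. Slfn1 entered this median where it passed the filter, as it did without KO 2 and without WT 1 and WT 2. Over the same 6 members the median against WT 3 alone was −0.41. The interferon-response median of −1.61 ran from −1.78 to −1.41 and was −1.14 without WT 1 and WT 2. The number of members whose groups do not overlap ran from 3 to 6 as libraries were left out, with Slfn1 counted where it passed the filter. Fewer libraries make such separation easier, so this range is no check of it. The causes were not tested, except that leaving out WT 1 and WT 2 leaves 1 wild-type library. Of 95 values of single members under alternatives, 93 moved by less than the SD between replicates. The other 2 were Slfn2 (−1.38) and Slfn9 (−0.46) against WT 3 alone. This is a wide yardstick for members that vary much between replicates. Against WT 3 alone, Slfn3 (−1.08 to −0.36), Slfn5 (−0.76 to −0.16) and Slfn8 (0.02 to −0.19) counted as not moved. The order of levels gave 0 adjusted calls under each pseudocount and in FPKM. It also gave 0 with any library left out. There, however, the smallest p that the permutation test allows lies above the threshold even before adjustment. No pair could have passed, so those fits are no check of the order.

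With the replicate number as a block, edgeR called 0 of all genes and 0 interferon-response genes, and the members' median was −1.30. Deviations from the group means correlated between same-numbered libraries at 0.0931, 0.363 and 0.19, so the pairing by number was not taken as given by the design. Each knockout library correlated best with the wild-type library of its own number, which is a hint from the data only. Depth limits Slfn1 most, with at most 20 counts, and the reading of Slfn3 in KO 3, with 6.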
